A study of Mus musculus with 6 samples.

Results

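The genes described here are feedback inhibitors of MAP kinase signalling, read in SLAM-LSK cells of mouse bone marrow. They are 6 inducible dual-specificity phosphatases (Dusp1, Dusp2, Dusp4, Dusp5, Dusp6 and Dusp10) and 4 Sprouty or Spred genes (Spry1, Spry2, Spred1 and Spred2). Gene positions are those of RefSeq on GRCm38.p6, the build also called mm10. All 10 symbols sought were among the 18465 genes of the deposited table, and all 10 passed the filter on low values that left 16655 genes for testing. The genes were chosen with the difference between the genotypes in view, so that difference is given for them as a description, with no test.

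SLAM-LSK cells carry Sca-1, c-Kit and CD150, lack lineage markers and CD48, and are enriched for haematopoietic stem cells. RNA was sequenced from 3 samples of WT C57BL/6 mice and 3 samples of C57BL/6 mice with 1 R751W allele of Mecom, named MecomWT:R751W, and no treatment, age or sex is given for either group. Mecom encodes a zinc finger transcription factor of stem cells, and the values of a gene total cannot separate its 2 alleles. The labels call the samples biological replicates without naming the mouse behind each, so p-values measure only the spread between these samples, which may be partly technical.

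MAP kinases relay signals from cytokine and growth factor receptors, and from stress, to the nucleus. ERK sits under Ras, Raf and MEK, while p38 and JNK answer mainly to stress. The dual-specificity phosphatases remove phosphate from both the threonine and the tyrosine that activate a MAP kinase, and most of them are transcribed in response to the kinase they switch off. Sprouty and Spred proteins act further up, at the membrane, where they limit the activation of Ras and Raf. Transcripts of several of these genes are short-lived and rise within minutes of stimulation, so they are often read as a record of recent signalling. A bulk sample does not tell fewer expressing cells from less RNA per cell.

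Recognition sequences of factors that MAP kinases and cyclic AMP act on were sought in the promoters. The promoters of 3 genes are shown, Dusp1 for its TPM, the highest of the 10, and Dusp2 and Dusp5 for the 2 largest differences between genotypes. RefSeq promoter windows (GRCm38.p6) matched 9 of the 10 genes, Dusp4 being the exception. The bases printed lie before the annotated start and outside every GENCODE M21 exon of the gene. Capitals mark the CRE core TGACG on either strand, the full CRE TGACGTCA that contains it, the EGR site GCGNGGGCG and the CArG box, which serum response factor binds.
Dusp1, chr17:26508520-26508722, minus strand: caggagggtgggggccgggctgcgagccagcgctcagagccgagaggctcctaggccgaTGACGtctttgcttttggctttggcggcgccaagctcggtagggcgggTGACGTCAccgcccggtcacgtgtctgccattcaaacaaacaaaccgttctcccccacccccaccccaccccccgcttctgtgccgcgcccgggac
Dusp2, chr2:127335909-127336158, plus strand: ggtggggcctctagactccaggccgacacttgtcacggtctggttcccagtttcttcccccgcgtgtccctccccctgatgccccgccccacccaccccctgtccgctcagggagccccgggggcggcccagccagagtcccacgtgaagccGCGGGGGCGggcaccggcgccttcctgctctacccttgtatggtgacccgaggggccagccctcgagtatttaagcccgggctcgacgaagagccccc
Dusp5, chr19:53528895-53529108, plus strand: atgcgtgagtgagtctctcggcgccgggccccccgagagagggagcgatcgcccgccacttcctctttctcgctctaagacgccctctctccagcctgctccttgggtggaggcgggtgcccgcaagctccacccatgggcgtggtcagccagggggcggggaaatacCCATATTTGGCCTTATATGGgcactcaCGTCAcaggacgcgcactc

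In the 250 bases before the start, Dusp1 was the only gene of the 9 with a full CRE, a sequence found in 1.55% of 32851 promoter windows of the same length. The CRE core was in the windows of Dusp1, Dusp5 and Spred2, and in 17.8% of all windows. Dusp5 had 2 CArG boxes end to end, at 82 to 73 and 72 to 63 bases before the start, and 1.47% of windows held at least 1. Dusp2 had 1 EGR site, found in 4.7% of windows. The AP-1 site TGANTCA (6.75% of windows) and the only EVI1 sequence sought, GACAAGATA (0.107% of windows), were in 0 of the 9 windows. Any other sequence that EVI1 may bind was not sought. The ETS core GGAAG was in 5 of the 9 and in 64.1% of all windows, and the GATA core GATAA in Dusp6 alone and in 22.6% of all windows. The TATA box letters TATAAA were in 0 of the 9 and in 12.4% of all windows. These are matches of letters on either strand and do not show binding.

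As background to all values, the 6 samples held 10427533 to 12378149 reads, as implied by the ratios of TPM values between samples, and each sums to 1000000 TPM. TPM divides a read number by gene length and scales the result to the same total in each sample. Median-of-ratios factors over the tested genes were 1.07, 0.915 and 1.04 for the WT samples and 1.05, 0.910 and 1.05 for the others, in the order of replicates 1, 2 and 3, which all values by sample follow. Replicate 2 was the lowest WT sample for 64.1% of tested genes and the lowest MecomWT:R751W sample for 64.8%. Mecom was at 38.2 ± 4.17 TPM over the WT samples and 45.0 ± 5.53 TPM over the MecomWT:R751W samples (SD, n = 3 each), and its groups overlapped. Of the gate markers, Kit was at 137 to 198 TPM, Ly6a, which encodes Sca-1, at 8.64 to 13.2 TPM and Slamf1, which encodes CD150, at 9.50 to 16.5 TPM over the 6 samples. Cd48, which the gate selects against, was at 1.02 to 2.18 TPM over the WT samples and 2.27 to 4.10 TPM over the MecomWT:R751W samples. Of the 10 markers of cells the gate removes, 3 were listed, with a summed level of 5.97 to 11.4 TPM over the WT samples and 6.63 to 12.7 TPM over the MecomWT:R751W samples. Of the 5 B and plasma cell markers 0 were listed. The 2 of 8 T and NK cell markers listed summed to 5.61 to 6.29 TPM over the WT samples and 11.1 to 14.1 TPM over the MecomWT:R751W samples, of which Nkg7 held 3.89 to 4.76 and 9.51 to 12.1 TPM, while Lck overlapped at 1.32 to 1.90 and 1.62 to 2.00 TPM. The 5 of 6 erythroid markers summed to 6.95 to 11.0 and 12.3 to 22.5 TPM. Of these, Klf1 was at 1.15 to 2.53 and 2.74 to 4.88 TPM and Car1 at 0.558 to 1.09 and 1.71 to 8.93 TPM. Hba-a1, Hbb-bs and Epor overlapped between the genotypes. The 3 of 7 neutrophil and monocyte markers listed summed to 68.6 to 87.6 and 60.7 to 79.0 TPM, and the 2 of 5 endothelial and stromal markers to 17.8 to 22.5 and 15.3 to 22.1 TPM. Almost all of the first sum was Lyz2, at 66.4 to 85.4 and 58.7 to 77.1 TPM. Almost all of the second was Pecam1, at 17.3 to 22.1 and 14.6 to 21.6 TPM. The part of other cells in the results below was not tested.

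Mean levels of the 6 phosphatase genes were lower in MecomWT:R751W cells by differing amounts, and the samples of the genotypes separated for 2 of the 6, Dusp2 and Dusp4. Of the 4 Sprouty and Spred genes, Spry1 and Spred2 had lower means and Spry2 and Spred1 higher ones, with overlapping samples. A log2 fold change is the mean of log2(TPM + 1) in MecomWT:R751W minus that in WT, with its standard error (SE) from limma. It was below 0 for 8 of the 10 genes, and 51% of all tested genes were below 0. The median over the 10 genes was -0.19, over the 6 phosphatases -0.35 and over the 4 Sprouty and Spred genes -0.05, beside -0.0037 over all tested genes. Without WT replicate 1 the median over the 10 genes was -0.10. The MecomWT:R751W values lay wholly below the WT values in 2 of the 10, Dusp2 and Dusp4, and wholly above in 0, and groups did not overlap in 9.19% of all tested genes (4.7% lower and 4.5% higher). With limma over all rows 0 of the 10 passed an adjusted p of 0.05, as did 0% of all genes. Over protein-coding rows alone Dusp2 and Dusp5 passed, where 1.16% of genes did, and with those rows rescaled to the same total Dusp2 passed, where 0.137% did. The log2 fold changes over protein-coding rows alone equal those over all rows, and the groups of Dusp5 overlapped. The pass of Dusp5 rests on a smaller spread in that fit than the SE given for it below. Over protein-coding rows Dusp2 did not pass without MecomWT:R751W replicate 2, and Dusp5 did not pass without WT replicate 1 or 2 or MecomWT:R751W replicate 2 or 3. Nothing is read from these counts, since the genes were chosen on this contrast.

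**Figure D1:**
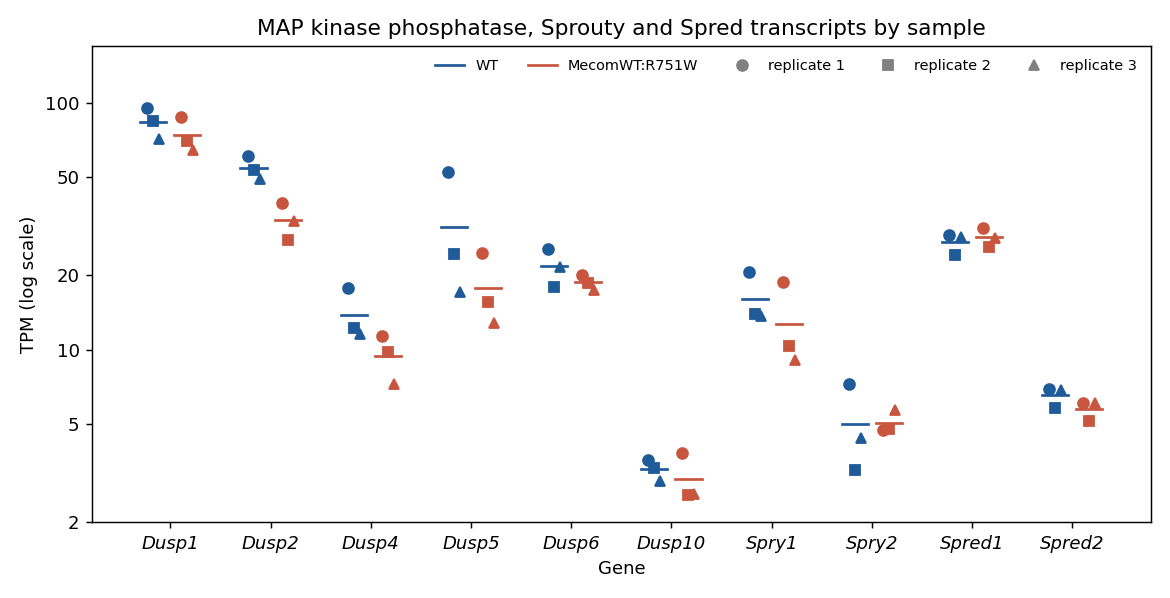
TPM of the 10 genes on a log axis, with 1 point per sample, blue for WT and red for MecomWT:R751W, marker shape for the replicate number and a bar at the mean of 3 samples. The groups separate for Dusp2 and Dusp4, and the Dusp5 value of WT replicate 1 (52.5 TPM) stands above the other 5 samples.

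Dusp2 (chr2:127336159-127338377), also known as PAC-1, is a nuclear phosphatase first described in activated lymphocytes. It was at 61.1, 53.3 and 49.0 TPM in the WT samples and at 39.2, 27.8 and 33.2 TPM in the MecomWT:R751W samples. Every MecomWT:R751W sample lay below every WT sample, with a gap between 39.2 and 49.0 TPM. The means were 54.4 ± 6.11 and 33.4 ± 5.66 TPM (SD, n = 3 each), a ratio of 0.613 and a log2 fold change of -0.70 (SE 0.15). With any 1 sample left out, the log2 fold change stayed between -0.81 and -0.58. The samples held 359 to 741 implied reads of Dusp2.

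Dusp4 (chr8:34807610-34819894), a nuclear phosphatase of ERK, JNK and p38, is the other gene whose groups did not overlap. It was at 17.9, 12.2 and 11.6 TPM in the WT samples and at 11.4, 9.77 and 7.26 TPM in the MecomWT:R751W samples. The gap was narrow, between 11.4 and 11.6 TPM, and the implied reads of those samples were 199 and 241. The log2 fold change was -0.50 (SE 0.20), and -0.32 without WT replicate 1.

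Dusp5 (chr19:53529145-53541809), a nuclear phosphatase selective for ERK, had a difference close to that of Dusp2, but 1 sample decided its size. It was at 52.5, 24.5 and 17.1 TPM in the WT samples and at 24.7, 15.6 and 12.8 TPM in the MecomWT:R751W samples. WT replicates 2 and 3 lay within the range of the MecomWT:R751W samples, and WT replicate 1 was 3.08 times WT replicate 3. The log2 fold change was -0.69 (SE 0.33), and it became -0.25 without WT replicate 1. Dusp5 also varied most of the 10 genes within WT, with an SD of 59.6% of the mean.

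Dusp1 (chr17:26505591-26508472), the founding inducible MAP kinase phosphatase, which acts on p38, JNK and ERK in the nucleus, had the highest TPM of the 10. It was at 95.4, 84.8 and 71.4 TPM in the WT samples and at 87.5, 69.9 and 64.5 TPM in the MecomWT:R751W samples. The groups overlapped, and the log2 fold change of -0.18 (SE 0.15) was close to its SE. It became -0.08 without WT replicate 1, -0.29 without WT replicate 3, -0.31 without MecomWT:R751W replicate 1 and -0.09 without MecomWT:R751W replicate 3.

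Dusp6 (chr10:99263231-99267489), the cytoplasmic phosphatase of ERK, was at 25.6, 18.0 and 21.6 TPM in the WT samples and at 20.1, 18.6 and 17.5 TPM in the MecomWT:R751W samples. The groups overlapped, with WT replicate 2 inside the MecomWT:R751W range. Its log2 fold change of -0.19 (SE 0.15) became -0.07 without WT replicate 1 and -0.31 without WT replicate 2. The RefSeq gene Gm34921 overlaps Dusp6 and was listed at 0.680 TPM on average. Whether the counting used strand is not stated, so reads of the overlap cannot be told apart.

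Dusp10 (chr1:184034381-184075636), a phosphatase of p38 and JNK, was the lowest of the 10, at 3.58, 3.31 and 2.93 TPM in the WT samples and at 3.82, 2.57 and 2.60 TPM in the MecomWT:R751W samples. MecomWT:R751W replicate 1 was the highest of all 6 samples, and the other 2 MecomWT:R751W samples were the lowest. The log2 fold change was -0.11 (SE 0.19), from 61 to 82 implied reads per sample, and ranged from -0.25 without MecomWT:R751W replicate 1 to -0.04 without MecomWT:R751W replicate 2.

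**Figure D2:**
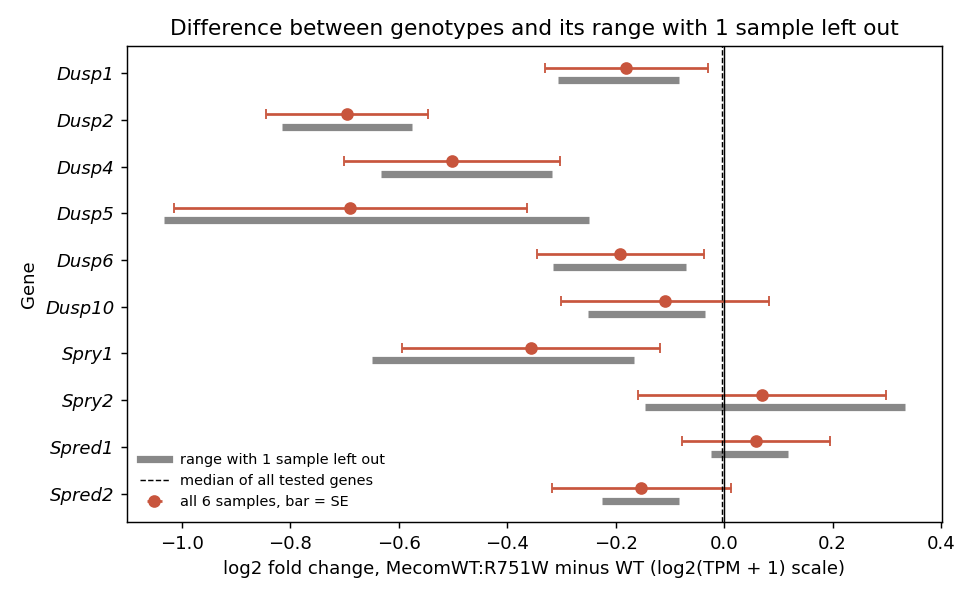
Log2 fold change of each gene (MecomWT:R751W minus WT, log2(TPM + 1) scale) with its SE in red, and in grey the range of the value when 1 sample at a time is left out. Dusp2 keeps the narrowest range of the 3 genes of largest difference, -0.81 to -0.58, while that of Dusp5 spans -1.03 to -0.25, and those of Spry2 and Spred1 cross 0.

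Among the membrane inhibitors, Spry1 (chr3:37639947-37644599), a Sprouty protein that limits Ras and Raf activation downstream of receptor tyrosine kinases, had the largest difference. It was at 20.6, 14.0 and 13.6 TPM in the WT samples and at 18.7, 10.4 and 9.12 TPM in the MecomWT:R751W samples. MecomWT:R751W replicate 1 stood with the WT samples and the other 2 lay below them all. The log2 fold change was -0.36 (SE 0.24). It became -0.65 without MecomWT:R751W replicate 1, and -0.17 without either WT replicate 1 or MecomWT:R751W replicate 3.

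Spry2 (chr14:105891947-105896819), the paralog of Spry1, showed no such difference. It was at 7.29, 3.26 and 4.39 TPM in the WT samples and at 4.71, 4.76 and 5.69 TPM in the MecomWT:R751W samples. The WT samples held both the highest and the lowest value, and the log2 fold change was 0.07 (SE 0.23). It ranged from -0.15 without WT replicate 2 to 0.33 without WT replicate 1.

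Spred1 and Spred2 encode membrane proteins that recruit neurofibromin to switch off Ras. Spred1 (chr2:117121071-117182279) was at 29.3, 24.2 and 28.6 TPM in the WT samples and at 31.2, 26.1 and 28.2 TPM in the MecomWT:R751W samples. The groups overlapped throughout, with a log2 fold change of 0.06 (SE 0.14), and it ranged from -0.02 without WT replicate 2 to 0.12 without MecomWT:R751W replicate 2. Spred2 (chr11:19924442-20024026) was at 6.92, 5.80 and 6.86 TPM in the WT samples and at 6.08, 5.13 and 6.10 TPM in the MecomWT:R751W samples. Its log2 fold change was -0.15 (SE 0.17) with overlapping groups, and -0.08 without MecomWT:R751W replicate 2. After median-of-ratios scaling the Spred2 values were 6.47, 6.34 and 6.61 TPM in the WT samples and 5.80, 5.63 and 5.80 TPM in the others, so its groups no longer overlapped. In that setting the groups did not overlap in 15.2% of genes, and the log2 fold change of Spred2 was still -0.15.

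The TPM of Spred2 rests on an unusually long gene model. The lengths implied by the table were 33833 bases for Spred2 and 1618 to 7087 bases for the other 9 genes, while the exons of Spred2 in GENCODE M21 cover 4619 bases. The samples held 1382 to 1992 implied reads of Spred2, beside 1412 to 1740 of Spred1. The sources used here do not say which bases were counted, so its level relative to the other genes is uncertain, while the comparison between samples uses 1 length throughout.

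In TPM, on the lengths implied by the table, Dusp1 was above all the other genes in both genotypes, with no overlap with the next gene, Dusp2. In WT, the order went on as Dusp2, Dusp5, Spred1, Dusp6, Spry1 and Dusp4, at means of 54.4, 31.4, 27.4, 21.7, 16.1 and 13.9 TPM, and each of these neighbours overlapped over the 3 samples. Spred2, Spry2 and Dusp10 followed at 6.53, 4.98 and 3.28 TPM, with a gap below Dusp4. In MecomWT:R751W, Dusp5 ranked below Spred1 and Dusp6, at a mean of 17.7 TPM beside 28.5 and 18.7 TPM, and its values overlapped those of Dusp6. Dusp1 stood at the 94.1 percentile of mean TPM over all listed genes and Dusp10 at the 28.0 percentile. The order depends on those lengths, which were 1942 bases for Dusp1, 1618 for Dusp2 and 3767 for Spry2, where GENCODE M21 exons cover 3311, 2003 and 2087 bases. The order of genes by level is therefore uncertain beyond Spred2 as well.

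Summed over the 6 phosphatase genes, the level was 256, 196 and 173 TPM in the WT samples and 187, 144 and 138 TPM in the MecomWT:R751W samples. The groups overlapped, with MecomWT:R751W replicate 1 above WT replicate 3. The 4 Sprouty and Spred genes summed to 55.0 ± 8.50 TPM over the WT samples and 52.1 ± 7.60 TPM over the MecomWT:R751W samples (SD, n = 3 each).

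The make-up of the phosphatase pool does not depend on the scaling between samples. It does depend on the implied gene lengths, so the size of each share is uncertain. Those lengths were 1942 bases for Dusp1 and 1815 for Dusp5, where GENCODE M21 exons cover 3311 and 2473 bases. Dusp1 made up 37.3%, 43.3% and 41.1% of the 6 phosphatase transcripts in the WT samples and 46.9%, 48.5% and 46.8% in the MecomWT:R751W samples, with no overlap. The share of Dusp2 was 23.8%, 27.2% and 28.2% in WT and 21.0%, 19.3% and 24.1% in MecomWT:R751W, where MecomWT:R751W replicate 3 lay just above WT replicate 1. Dusp5 had 20.5% in WT replicate 1 and 9.27% to 13.3% in the other 5 samples. Dusp10, though low, made up 1.40% to 1.69% in WT and 1.78% to 2.05% in MecomWT:R751W. Shares add to a fixed total, so a lower share of 1 gene raises those of the others.

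**Figure D3:**
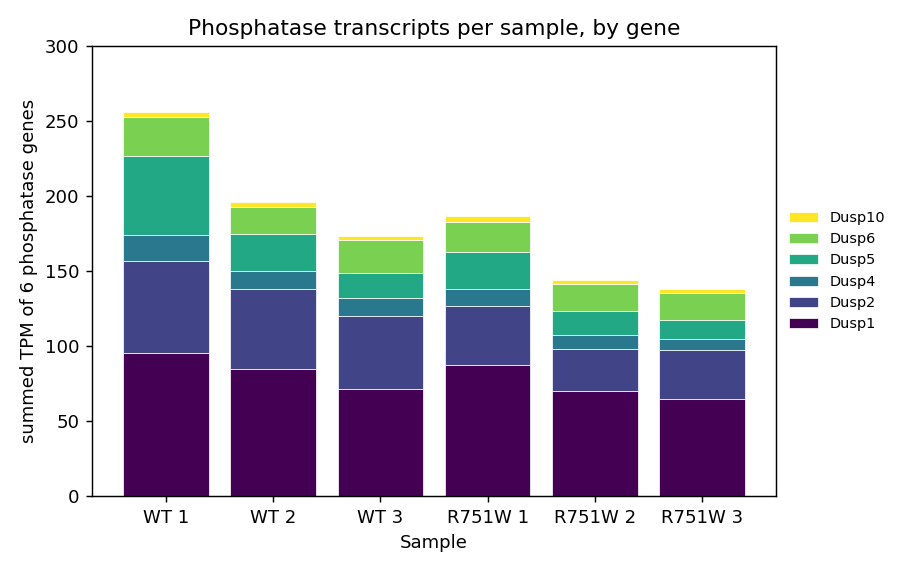
Summed TPM of the 6 phosphatase genes in each sample, stacked by gene from 0. Totals run from 138 TPM in MecomWT:R751W replicate 3 to 256 TPM in WT replicate 1, and the Dusp5 layer of WT replicate 1 is the widest of the 6.

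The order of samples within a genotype is not the contrast on which the genes were chosen, but a high WT replicate 1 enlarges that contrast. Without WT replicate 1 the median log2 fold change of the 10 genes was -0.10, beside -0.19 with all samples. The counts by sample below are therefore not independent of the choice. WT replicate 1 was the highest WT sample for 10 of the 10 genes, and it was so for 51.7% of all tested genes. MecomWT:R751W replicate 1 was the highest of its group for 8 of the 10, all but Spry2 and Spred2, and for 43.7% of all tested genes. The scaling between samples bears on these counts. After median-of-ratios scaling, WT replicate 1 was highest for 5 of the 10 genes and 35.9% of all genes, and MecomWT:R751W replicate 1 for 7 of the 10 and 33.5% of all genes. The mean of log2(TPM + 1) over the 10 genes was then 4.39, 4.15 and 3.98 in the WT samples and 4.08, 3.92 and 3.71 in the MecomWT:R751W samples. The range within WT was thus wider than the difference between the genotype means, 4.18 and 3.91, and MecomWT:R751W replicate 1 stood above WT replicate 3. At each replicate number, though, the MecomWT:R751W sample lay below the WT sample. The labels do not say that the numbers mark pairs, so this is a description.

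**Figure D4:**
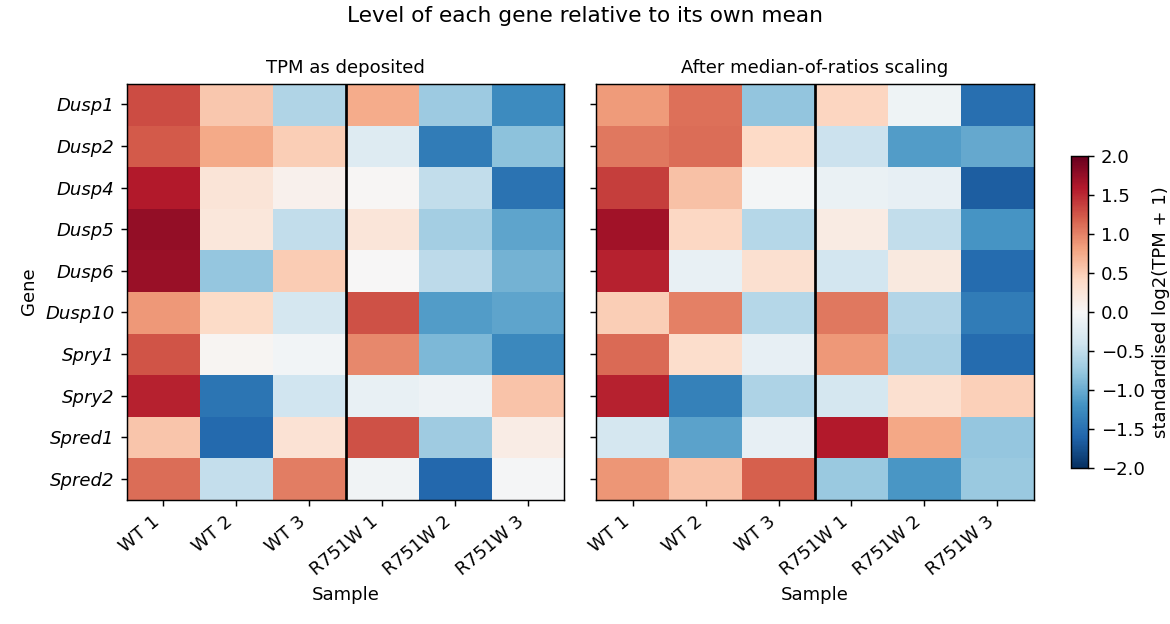
Level of each gene in each sample, standardised to the gene's own mean and SD over the 6 samples, for TPM as deposited (left) and after median-of-ratios scaling (right). Red is high and blue is low, and the line parts WT from MecomWT:R751W. WT replicate 1 is the highest WT sample for 10 of 10 genes on the left and 5 of 10 on the right.

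Not every gene followed the others. As a description over 6 samples, which share genotype and depth, the scaled log2 level of Dusp4, Dusp5 and Spry1 had Pearson correlations of 0.96, 0.95 and 0.93 with the mean of the other 9 genes, while those of Dusp6, Dusp1, Dusp10 and Dusp2 were 0.82, 0.81, 0.72 and 0.70. Spred2 stood at 0.44, Spry2 at 0.03 and Spred1 at -0.05. On TPM as deposited, where the samples also share their scaling, the last 3 were 0.67, 0.37 and 0.42.

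Among 6057 other protein-coding genes whose mean reached 10 TPM, the 5 whose deposited levels were most like the mean of the 10 genes over the 6 samples were Tra2a, Sde2, Rlim, Btg3 and Chka, with Pearson correlations of 0.992 to 0.998. Tra2a, a splicing regulator, was at 120, 82.2 and 90.3 TPM in the WT samples and at 96.0, 69.5 and 71.4 TPM in the MecomWT:R751W samples. Btg3, an antiproliferative protein, was at 29.5, 13.7 and 14.8 TPM in the WT samples and at 17.8, 9.14 and 11.0 TPM in the others. After scaling, Tra2a, Sde2, Rlim and Chka were at ranks 8, 7, 2 and 26 and Btg3 at rank 157. The median correlation of the 6057 genes was 0.44 before scaling and 0.03 after it. Of the immediate early genes listed next, 14 were among these candidates, with a median of 0.85 before scaling and 0.91 after it. Klf6, a Kruppel-like factor, was the closest of them (0.97, rank 25) and Jun the farthest (0.46, rank 2874). The 10 genes and the immediate early list were both chosen with the genotype difference known. Their likeness over these samples was therefore partly set by that choice, and nothing is read from it.

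The kinase genes that the phosphatases and Sprouty proteins restrain had values near 0 on both sides. Of 20 genes for Ras, Raf, MEK, ERK and their adaptors, all tested, 0 passed limma's adjusted threshold in either direction. Of these, 12 were below 0, with a median log2 fold change of -0.02 and a range of -0.15 to 0.16. The 3 of smallest p were Araf, a Raf kinase (0.16, SE 0.16), Shc1, an adaptor of receptor tyrosine kinases (-0.15, SE 0.15), and Rps6ka3, an ERK-activated kinase (0.14, SE 0.15). Single samples moved all 3. Araf stood at 0.03 without MecomWT:R751W replicate 3 and 0.27 without MecomWT:R751W replicate 2, and Shc1 at -0.04 without MecomWT:R751W replicate 2. Rps6ka3 stood at 0.09 without either WT replicate 2 or MecomWT:R751W replicate 3. Of 12 tested genes for p38, JNK and the kinases above them, 0 passed, with 6 below 0 and a median of -0.01. Map2k3, which activates p38, stood at -0.24 (SE 0.16), but at -0.10 without WT replicate 1 and -0.38 without WT replicate 2. Map3k5, the stress kinase ASK1, stood at 0.22 (SE 0.16) and Map2k7, which activates JNK, at -0.12 (SE 0.14). Map2k7 stood at -0.22 without WT replicate 2, at -0.04 without WT replicate 3 and at -0.06 without MecomWT:R751W replicate 2.

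Other brakes and family members were also on both sides of 0. Of the 7 further phosphatase, Sprouty and Spred genes sought, 4 were tested and 0 passed. Dusp16, a phosphatase of JNK and p38, was at 6.91 ± 1.10 and 6.65 ± 1.04 TPM in WT and MecomWT:R751W, Dusp7, a cytoplasmic phosphatase of ERK, at 4.86 ± 0.653 and 4.72 ± 0.811 TPM, and Spry4 at 1.13 ± 0.784 and 0.931 ± 0.292 TPM (SD, n = 3 each). With 1 sample left out their log2 fold changes lay on both sides of 0, up to 0.08 for Dusp7 and 0.07 for Dusp16 without MecomWT:R751W replicate 2 and 0.03 for Spry4 without MecomWT:R751W replicate 3. The lowest were -0.13 for Dusp7 without WT replicate 3, and -0.17 for Dusp16 and -0.25 for Spry4 without WT replicate 2. Of 12 tested brakes on Ras and on receptors outside these families, 0 passed, with 6 below 0 and a median of -0.01. Dok2, an adaptor that recruits RasGAP, stood at 0.19 (SE 0.16), Rasa3, a Ras GTPase activating protein, at -0.18 (SE 0.13) and Rasal3, of the same class, at 0.17 (SE 0.15). Rasa3 stood at -0.10 without MecomWT:R751W replicate 2 and -0.28 without MecomWT:R751W replicate 3. Rasal3 stood at 0.09 without WT replicate 2, at 0.28 without WT replicate 3, at 0.27 without MecomWT:R751W replicate 2 and at 0.09 without MecomWT:R751W replicate 3.

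Receptors above the cascade went both ways. Of 10 tested, 0 passed over all rows, 7 were below 0 and the median was -0.17. Flt3, the receptor of lymphoid-primed progenitors, was at 11.4 ± 1.90 TPM over the WT samples and 22.9 ± 2.10 TPM over the MecomWT:R751W samples (SD, n = 3 each), a log2 fold change of 0.96 (SE 0.16, limma adjusted p = 0.142). Fgfr1, a fibroblast growth factor receptor whose signalling Sprouty proteins restrain, was at 10.9, 5.38 and 6.72 TPM in the WT samples and at 5.02, 4.37 and 3.86 TPM in the MecomWT:R751W samples. Its groups did not overlap, but the log2 fold change of -0.63 (SE 0.22, limma adjusted p = 0.662) became -0.38 without WT replicate 1. Csf2rb, the shared beta chain of the IL-3, IL-5 and GM-CSF receptors, stood at 0.47 (SE 0.17, limma adjusted p = 0.674).

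Immediate early genes, whose transcripts respond within minutes to growth factors and stress, had lower mean values in MecomWT:R751W. Of 19 tested immediate early genes, a list that holds none of the 10 genes, 19 were below 0 with a median of -0.60 and 0 passed over all rows. This list was known to be low in these data when it was written down, so it lends no independent support. Its mean log2(TPM + 1) was 5.71, 5.23 and 4.75 in the WT samples and 5.15, 4.44 and 4.28 in the MecomWT:R751W samples, so the groups overlapped at MecomWT:R751W replicate 1. Egr1, a zinc finger factor induced by ERK, was at 273, 229 and 130 TPM in WT and at 151, 92.3 and 61.2 TPM in the MecomWT:R751W samples (log2 fold change -1.08, SE 0.30, limma adjusted p = 0.431). Klf2, a Kruppel-like factor, stood at -0.97 (SE 0.27, limma adjusted p = 0.465) and Jun, a subunit of AP-1, at -0.38 (SE 0.12, limma adjusted p = 0.586), with no overlap for Jun.

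Of 10 tested transcripts used as readouts of ERK output, which share Egr1, Fos and Ier3 with the immediate early list, 10 were below 0 with a median of -0.18, and 0 passed over all rows. Since the shared genes come from a list known to be low, this count and median lend no independent support either. Maff, a small MAF factor, was at 12.8 ± 3.31 TPM over the WT samples and 7.16 ± 1.97 TPM over the MecomWT:R751W samples (SD, n = 3 each), and Ier3, an early response protein, at 7.71 ± 1.07 and 4.71 ± 1.72 TPM. Neither had overlapping groups, with log2 fold changes of -0.76 (SE 0.21) and -0.64 (SE 0.21). Myc, Etv5, Phlda1, Spry4 and Ccnd1 of this list stood between -0.05 and -0.14, each smaller in size than its SE. Klf10 of this list stood at -0.22 (SE 0.13). Klf10 and those genes are named here after their values were seen, and Spry4 is also among the further family genes above. Of the tristetraprolin family, whose proteins bind and destabilise short-lived transcripts, 3 were tested, 3 were below 0 and 0 passed. Zfp36, which is also in the immediate early list, stood at -0.52 (SE 0.23), and at -0.81 without MecomWT:R751W replicate 1. Zfp36l1 stood at -0.22 (SE 0.18), at -0.08 without WT replicate 1 and at -0.05 without MecomWT:R751W replicate 2, and Zfp36l2 at -0.05 (SE 0.14). Zfp36l2 lay above 0 without WT replicate 1 (0.04) or MecomWT:R751W replicate 2 (0.03), and it was lower, at -0.13, with WT replicate 2 left out and at -0.12 with MecomWT:R751W replicate 1 left out. Of 8 genes for serum response factor, its partners and the CRE-binding factors Creb1 and Atf1, 0 passed, with 4 below 0 and a median of -0.06. Elk3, a ternary complex factor that ERK phosphorylates, stood at -0.16 (SE 0.15), at -0.26 without MecomWT:R751W replicate 1, at -0.10 without WT replicate 1 and at -0.04 without MecomWT:R751W replicate 2. Mrtfa and Mrtfb, actin-linked coactivators of serum response factor, both stood at -0.15 (SE 0.15 and 0.16), and both at -0.02 without MecomWT:R751W replicate 2. Mrtfa stood at -0.22 without MecomWT:R751W replicate 3.

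Over all 93 tested pathway genes outside the 10, 65 were below 0 with a median of -0.08, and limma called 0 over all rows. At an unadjusted p under 0.05 there were 16 of the 93, where 5.97% of all genes had such a p. The 93 include the 19 immediate early genes, a list known to be low in these data when it was written down. These counts and the calls below therefore lend no independent support to a difference across the pathway. Over protein-coding rows alone, limma called 1 of the 93 higher, Flt3, and 9 lower, where 0.351% and 0.807% of 11394 genes were called. The lower ones were Egr1, Klf2, Maff, Ier3 and Zfp36, named above, and Atf3, Ier2, Nr4a1 and Nr4a2, named here after their values were seen. The log2 fold changes equal those over all rows. Egr1, whose groups overlapped, had a limma adjusted p of 0.431 over all rows and 1.9e-06 in the protein-coding fit. Without WT replicate 1 that fit called 3 pathway genes lower and without replicate 2 of either genotype it called 1, while it called 16 without WT replicate 3 or MecomWT:R751W replicate 1 and 4 without MecomWT:R751W replicate 3. With the protein-coding rows rescaled to the same total, where 0.0645% of genes were called higher and 0.0726% lower, Flt3 was the 1 pathway gene called. Over all rows without MecomWT:R751W replicate 1, Egr1 and Nr4a1 were called lower.

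**Figure D5:**
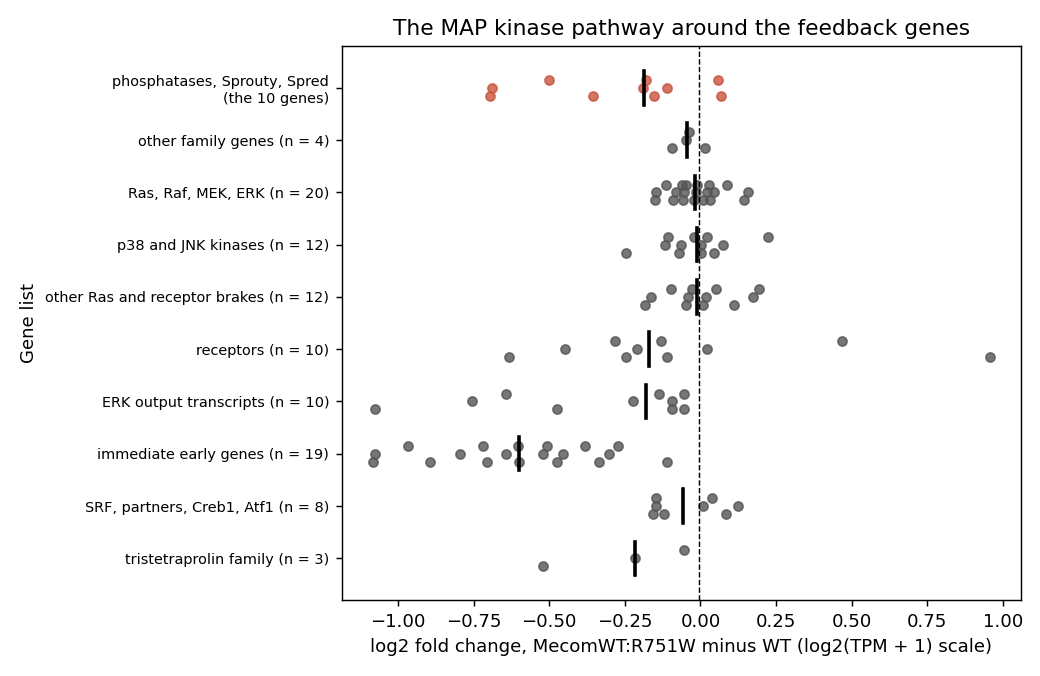
Log2 fold change (MecomWT:R751W minus WT, log2(TPM + 1) scale) of each tested gene in the 10 genes, in red, and in 9 lists of the pathway around them, in grey, with a black bar at each list's median and a dashed line at the median of all tested genes. The kinase and brake lists lie around 0, and the immediate early list has the lowest median, -0.60.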

How the data were processed

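The authors deposited one table of TPM, with read numbers divided by gene length and scaled to 1000000 in each sample. The submitters' processing notes name the build mm10 and the tool DESeq2 without its role, and the aligner, counter, annotation and strand setting were not found in the labels or the table. The labels' protocols list several library kits without saying which was used. All columns were mapped to samples (0 unmapped). Genes whose mean reached 1 TPM were tested on log2(TPM + 1) with limma 3.58.1 (R 4.3.3), a mean-variance trend and Benjamini-Hochberg adjustment at 0.05, after a check on simulated data. Whole read numbers that fit the TPM ratios were found for 100% of genes (tolerance 0.001 reads). On simulated tables the procedure gave back the exact reads for 98.5% of genes. Because TPM is not a count, the implied reads only describe depth. The genes and lists were chosen with earlier results of these data known. Named genes are the 10, up to 3 of smallest p in each list, and the 5 most alike by Pearson correlation. Alternatives covered the pseudocount (0.1 and 5), the filter, scaling, protein-coding rows, the trend, the replicate block and each sample left out. RefSeq (GRCm38.p6) gave positions and promoters.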

Additional observations from a re-analysis of the deposited data

How the results depend on the processing

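Of the 10 genes, 8 were lower in the reported fit and 8 to 10 with 1 sample left out, as Spry2, Spred1 or both turned below 0 in some settings. With 1 sample left out, the median log2 fold change of the 10 genes ran from -0.28 to -0.10. With limma over all rows 0 genes passed the adjusted threshold, while 995 had an unadjusted p under 0.05. The number called was 2 with a mean of at least 5 TPM, 132 over protein-coding rows, 17 with those rescaled, and 0 to 13 with 1 sample left out. Chosen after seeing the data, protein-coding rows without WT replicate 1, 2 or 3 gave 75, 52 and 198, and without MecomWT:R751W replicate 1, 2 or 3 gave 151, 53 and 108. Pathway genes called numbered 0 in the reported fit, 10 over protein-coding rows, 1 with those rescaled, and 0 to 2 with 1 sample left out. Groups did not overlap in 1531 genes, in 893 with a mean of at least 5 TPM and in 2526 after median-of-ratios scaling. With 1 sample left out, groups did not overlap in 2795 to 3782 genes, 16.8% to 22.6% of those tested. The same held for 2 to 6 of the 10 genes. The 6 came without MecomWT:R751W replicate 1, where groups did not overlap in 17.5% of genes. Spry2 was among these genes without WT replicate 1, and it was higher there. These counts rise by construction with fewer samples; the cause of the other moves was not tested.

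With the replicate number as a replicate block, 0 genes were called and the median of the 10 genes was -0.19. Deviations of same-numbered samples correlated at 0.14, 0.089 and 0.083 across genes, and each sample correlated best with its own number, a hint from the data and not from the design. Depth limits Dusp10 most, with 61 to 82 implied reads.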
